A study of Homo sapiens with 8 samples.

Results

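Kinesins are motor proteins that turn the energy of ATP into steps along microtubules. The 40 members of the family followed here are the genes named KIF1A to KIF27 with KIFC1, KIFC2 and KIFC3, taken by gene symbol, and all 40 were on the array, through 84 of its 41091 probe sets that carry a single gene name. They were measured 72 h after transfection with an siRNA against HMGA1 (siHMGA1, 4 arrays) or with a control siRNA (siCTRL, 4 arrays) in MDA-MB-231, an established human line of basal-like breast cancer. Both groups were the same line under the same transfection, the methods name a single HMGA1 siRNA for the arrays, and HMGA1 is an architectural chromatin protein. Values are log2 probe set signals, in which a difference of 1 is a doubling, and each gene is represented by the probe set that was brightest on average across the 8 arrays.

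Kinesins share a conserved motor domain and differ in what that domain is attached to. Members that build and run the mitotic spindle push the poles apart, move chromosomes, shorten microtubule ends or organise the midzone where the daughter cells separate, and their transcripts are known to rise towards mitosis in dividing cells. Members that carry vesicles, mitochondria or ciliary components serve cells throughout the cycle, and several of these are best known from neurons. By these roles the family was divided into 12 mitotic, 15 transport and 13 other kinesins, the last of them mostly ciliary, regulatory or less well characterised. KIF2A, which also works at spindle poles, was placed among the others.

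HMGA1 itself had a log2 signal of 12.62, 12.84, 12.69 and 12.85 in the siCTRL arrays and of 10.11, 10.37, 10.29 and 10.57 in the siHMGA1 arrays, so the target was lower in every array that carried its siRNA (log2 fold change -2.42, standard error 0.0956, adjusted p = 2.46e-08 from limma). This is 18.7% of control. The dimmer HMGA1 probe set kept 53.5% of control (log2 fold change -0.90), and the mean of both gave -1.66. Log2 fold changes are siHMGA1 minus siCTRL throughout, and p-values were adjusted by the method of Benjamini and Hochberg across the 19775 genes tested. Of 5 markers of basal-like mesenchymal lines, VIM was bright in both groups and slightly lower in siHMGA1 (14.69 and 14.53, log2 fold change -0.16, adjusted p = 0.0405 from limma). AXL (0.19) and EGFR (0.32) were higher, and CD44 (0.08) and CAV1 (-0.14) did not pass. None of the 6 luminal markers passed the test. Of these, ESR1 (6.51 and 6.42), PGR (3.98 and 4.02), FOXA1 (4.16 and 4.21) and CDH1 (4.72 and 4.96) were dim, while GATA3 (9.81 and 9.76) and KRT18 (13.66 and 13.79) were bright in both groups. The log2 summed signal of 4 leukocyte markers was 9.09 to 9.33 in siCTRL and 8.76 to 8.93 in siHMGA1, with LYZ lower (log2 fold change -0.61), PTPRC higher (0.50) and CD14 and CD3E not passing. Array means were 6.57 to 6.58. The 4 arrays of a group are called biological replicates in the labels, which do not state whether each came from its own culture. The p-values speak only of the variation among the 8 arrays, whose number limits the precision.

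After HMGA1 silencing all 12 kinesins grouped as mitotic fell, while most of the others did not pass the test. With the limma threshold set at an adjusted p of 0.05, 16 of the 40 members were lower and 4 were higher. Of all genes tested, 14.7% were lower and 15.8% higher, 30.5% in either direction. The 12 mitotic members made up most of the 16 lower ones, with log2 fold changes from -2.32 to -0.52 and a median of -1.01. Of the 15 transport kinesins, 3 were lower, 2 were higher and 10 did not pass, with a median of -0.04. Of the 13 other kinesins, 1 was lower, 2 were higher and 10 did not pass, with a median of 0.14. The median over all genes tested was 0.01. The median of the mitotic members minus that of the transport members was -0.97 on the log2 scale, and -0.92 without KIF23 and KIF4A, which the study had itself picked from these arrays, so that their direction is not independent evidence. KIF2A did not pass the test (log2 fold change 0.14), and with it counted as mitotic the difference was -0.92. Since the members and roles were chosen with results of these arrays known, this contrast between roles is a description and carries no test. With housekeeping genes as the centre of each array instead, 15 members were lower and 11 higher (42.3% of the called members higher, against 20.0%). All genes tested shifted the same way, with 2231 lower and 4781 higher (68.2% of the called genes higher, against 51.8%) and a median of 0.09. The transport median turned to 0.03, while the 12 mitotic members stayed lower. The centre was the mean of 9 housekeeping genes, which were not all stable. TBP (-0.64) and HPRT1 (-0.34) were lower, and YWHAZ (0.18) and SDHA (0.17) were higher. Their median log2 fold change was 0.00, but the mean is drawn down in siHMGA1 by the larger falls of TBP and HPRT1.

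**Figure D1:**
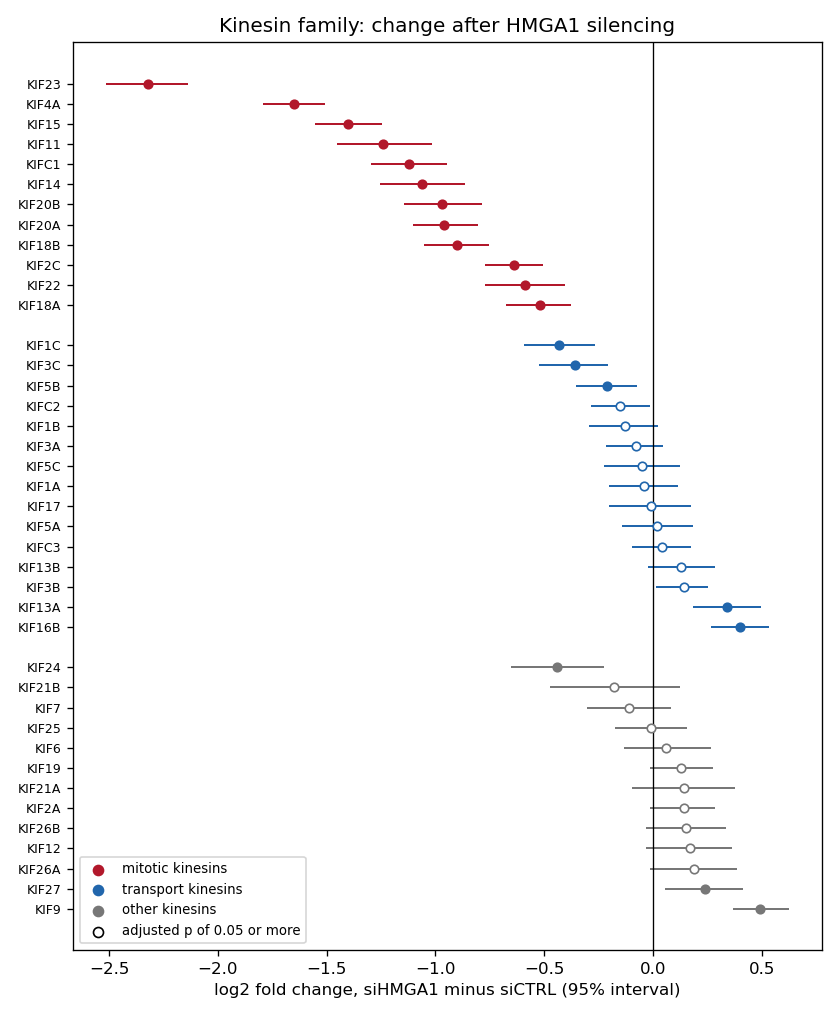
Log2 fold change (siHMGA1 minus siCTRL, horizontal axis) of the 40 kinesin members with 95% intervals from limma, grouped by role; filled points passed an adjusted p of 0.05. The 12 mitotic members lie between -2.32 and -0.52, and the other 28 between -0.44 and 0.49.

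The largest falls were in motors of the spindle midzone. KIF23, the motor subunit of the centralspindlin complex that works in cytokinesis, had log2 signals of 10.75, 10.67, 10.71 and 10.80 in siCTRL and of 8.24, 8.27, 8.53 and 8.59 in siHMGA1. Its means were 10.73 ± 0.0538 and 8.41 ± 0.18 (SD, n = 4 each), which left 20.0% of the control signal (standard error of the log2 fold change 0.0848, adjusted p = 1.48e-08 from limma). The groups were far apart, and its dimmer probe set was also lower, with a smaller log2 fold change of -1.22. KIF4A, a chromokinesin that binds chromosome arms and limits midzone microtubule growth, had 11.27, 11.19, 11.25 and 11.18 in siCTRL and 9.53, 9.49, 9.54 and 9.71 in siHMGA1, which is 31.8% of control (log2 fold change -1.65, standard error 0.0638, adjusted p = 2.30e-08 from limma). These were the only members past the stricter thresholds of the methods (1e-04 for the adjusted p and 1.4 for the size of the log2 change), which 0.491% of all genes passed downwards. KIF15 fell just short at -1.40 and went past them with cyclic loess (-1.42). KIF4A had a single probe set, and its near-identical retrogene copy KIF4B had none of its own here, so signal from the pair cannot be told apart.

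KIF20A, which brings the chromosomal passenger complex to the midzone, had 11.63, 11.55, 11.63 and 11.65 in siCTRL and 10.58, 10.57, 10.70 and 10.79 in siHMGA1 (log2 fold change -0.96, standard error 0.066, adjusted p = 8.87e-07 from limma). KIF20B, a relative that also acts in cytokinesis, had 10.30, 10.24, 10.29 and 10.21 against 9.19, 9.31, 9.16 and 9.52 (log2 fold change -0.97, standard error 0.0794, adjusted p = 3.12e-06 from limma). KIF14, a motor required for the completion of cytokinesis, had 10.58, 10.71, 10.75 and 10.54 against 9.51, 9.38, 9.69 and 9.74 (log2 fold change -1.06, standard error 0.0861, adjusted p = 2.90e-06 from limma). In each of these 3 genes the siHMGA1 arrays kept between 47.9% and 51.6% of the control signal, and no siHMGA1 array reached the lowest siCTRL array. The dimmer probe set of KIF14 gave a similar value (-1.13), whereas KIF20B fell on its bright probe set alone and had values of -0.07 and 0.11 on its other 2, whose means of 5.10 and 3.78 lie near background.

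Motors that set up the bipolar spindle fell as well. KIF15, which can hold spindle poles apart alongside KIF11, had log2 signals of 10.11, 9.98, 10.01 and 9.95 in siCTRL and of 8.53, 8.57, 8.61 and 8.76 in siHMGA1 (log2 fold change -1.40, standard error 0.0675, adjusted p = 8.02e-08 from limma). KIF11 itself, the tetrameric motor that slides antiparallel microtubules and is the target of the Eg5 inhibitors, had 10.71, 10.90, 10.97 and 10.93 in siCTRL and 9.46, 9.55, 9.64 and 9.93 in siHMGA1 (log2 fold change -1.24, standard error 0.0988, adjusted p = 2.63e-06 from limma). KIFC1, a minus-end-directed motor that focuses spindle poles and clusters extra centrosomes in cancer cells, had 10.20, 10.52, 10.39 and 10.26 against 9.21, 9.15, 9.20 and 9.34 (log2 fold change -1.12, standard error 0.0782, adjusted p = 9.58e-07 from limma). The transcripts of motors that push poles apart and of the motor that pulls them together fell side by side, to 38.0% of control for KIF15, 42.5% for KIF11 and 46.1% for KIFC1.

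The smallest falls among the mitotic members were in 3 motors that act on microtubule ends and in a chromosome-arm motor. KIF18B, a motor that restrains astral microtubules, had 10.79, 10.72, 10.70 and 10.73 in siCTRL and 9.83, 9.68, 9.94 and 9.89 in siHMGA1 (log2 fold change -0.90, standard error 0.0663). KIF2C, the depolymerase MCAK that corrects wrong attachments at centromeres, had 11.97, 12.01, 12.03 and 12.08 against 11.41, 11.32, 11.35 and 11.47 (log2 fold change -0.64, standard error 0.0578). KIF18A, which damps chromosome movements at the metaphase plate, had 9.19, 9.10, 9.30 and 9.11 against 8.57, 8.64, 8.65 and 8.75 (log2 fold change -0.52, standard error 0.0661). These 3 motors of microtubule ends kept from 53.4% to 69.6% of the control signal, again without overlap between the groups. KIF22, a chromokinesin that pushes chromosome arms outwards, had 8.94, 9.22, 9.13 and 9.25 in siCTRL and 8.43, 8.54, 8.52 and 8.70 in siHMGA1 (log2 fold change -0.59, standard error 0.0822). All 12 mitotic members had an adjusted p from limma of 1.78e-04 or less, the value of KIF22, whose dimmer probe set gave -0.04 (mean signal 6.52).

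**Figure D2:**
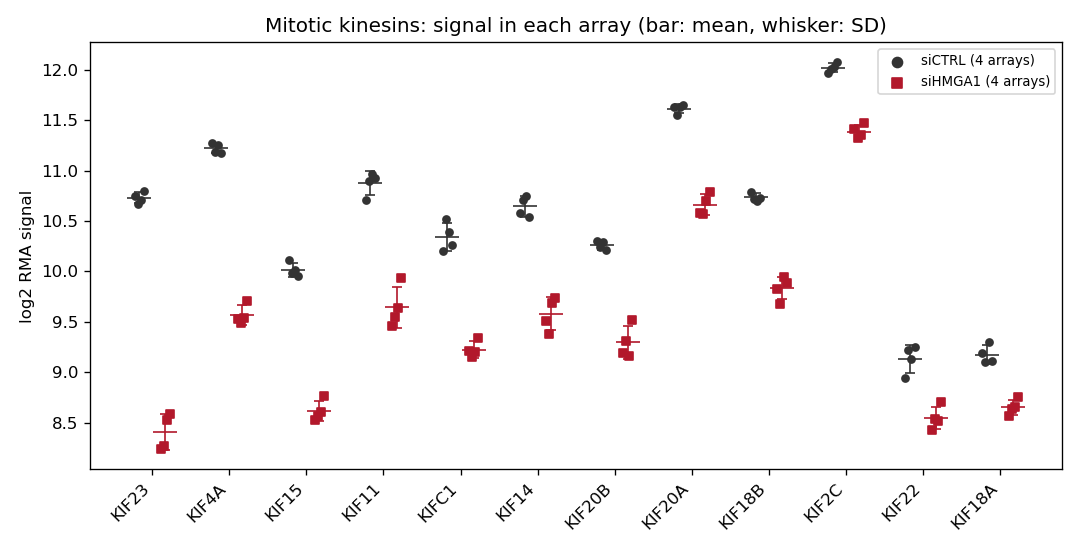
Log2 RMA signal (vertical axis) of the 12 mitotic kinesins in each siCTRL array (circles) and each siHMGA1 array (squares), ordered by fold change; horizontal bars are means and whiskers the SD of 4 arrays. In all 12 genes the highest siHMGA1 array lies below the lowest siCTRL array.

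In none of the 12 mitotic members did the groups overlap, where the siHMGA1 arrays lay wholly below the siCTRL arrays in 15.6% of all genes tested. Among the siHMGA1 arrays, replicate 4 held the highest value of 11 of the 12 mitotic members and replicate 3 that of the remaining one, KIF18B. Averaged over the 12 members, the deviation from the siCTRL mean was -0.97 in replicate 4 and -1.19, -1.19 and -1.10 in replicates 1, 2 and 3. On the brighter HMGA1 probe set, replicate 4 was also the siHMGA1 array with the highest remaining signal, 10.57. Replicates 1, 2 and 3 had 10.11, 10.37 and 10.29 there. The dimmer HMGA1 probe set gave another order, with 7.64, 7.59, 7.03 and 7.08 in siHMGA1 replicates 1 to 4. The part of the remaining HMGA1 in the differences among these arrays was not tested. The transport members had median deviations of 0.02, 0.09, -0.08 and -0.10 in siHMGA1 replicates 1 to 4. With siHMGA1 replicate 4 left out, the median of the mitotic members minus that of the transport members was -1.06.

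Genes that mark dividing cells moved with the mitotic kinesins. All 18 proliferation markers passed the limma threshold downwards, against 14.7% of all genes tested, with log2 fold changes from -1.53 to -0.59 and a median of -0.76. Among them were MYBL2 (-1.53), a transcription factor of genes of G2 phase and mitosis, and TOP2A (-1.31), the topoisomerase of dividing cells. Another was CDK1 (-1.12), the kinase that drives entry into mitosis. The log2 of the summed signal of the 18 markers was 15.82 to 15.94 in siCTRL and 14.96 to 15.18 in siHMGA1. In bulk RNA a smaller share of cells in mitosis and less kinesin RNA per cell cannot be told apart, and the part of the proliferation state in the falls was not tested.

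Transcripts of proteins that work with the mitotic kinesins were lower too. Of 17 measured partners, 16 fell and 0 rose past the same limma threshold, against 14.7% and 15.8% of all genes tested. Their median log2 fold change was -0.82. AURKB, the kinase of the chromosomal passenger complex (-1.60), CDCA8, its borealin subunit (-1.45), and TPX2, a spindle assembly factor that binds KIF11 and KIF15 (-1.41), had the largest falls. PRC1, the midzone bundling protein that recruits KIF4A, had a log2 fold change of -1.37, and RACGAP1, which forms centralspindlin with KIF23, of -0.75, a smaller change than that of KIF23. CENPE, the kinetochore kinesin that carries no KIF symbol, had a log2 fold change of -1.32. The partner that did not pass was INCENP (-0.11, 95% interval -0.30 to 0.07, adjusted p = 0.369 from limma). These counts were the same with cyclic loess and with centring on housekeeping genes.

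Promoters of most mitotic members held sequence motifs that are known from cell cycle genes. The CHR (cell cycle genes homology region) is a short element bound by the MuvB core of the DREAM and MYBL2 complexes, and the CCAAT box is bound by NF-Y. Both are known from genes of G2 phase and mitosis, so their presence in a group defined by a mitotic role says nothing about the siRNA. RefSeq promoter windows (build GRCh38.p14, 250 bases before to 50 after an annotated start) were found for 32 of the 40 members, 41 windows in all, and were searched on both strands for the CHR as TTTGAA or TTTAAA and for CCAAT. The search was added after the expression values had been seen. A CHR was present in the windows of 11 of 12 mitotic members (91.7%), of 2 of 11 transport members (18.2%) and of 0 of 9 others, and in those of 24.0% of the 15384 tested genes with a window. CCAAT was present in 10 of 12 mitotic members (83.3%), 4 of 11 transport members (36.4%), 3 of 9 others and 41.7% of tested genes. A CCAAT box followed within 40 bases by a CHR occurred in 7 mitotic members, in no transport or other member, and in 2.39% of tested genes. With only TTTGAA counted as a CHR, the mitotic count was 9 of 12 and the share of tested genes 15.6%. The 2 motifs shared no bases in any member's window. A match describes letters only, and binding was not measured here.

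The 100 bases before the start are printed for the 6 mitotic members that hold a whole CHR there, with KIF22 (the first of its 2 windows), the mitotic member without a match to the CHR, and KIF3B, a transport kinesin with a CCAAT box and no CHR, for comparison. Capitals mark CHR and CCAAT motifs, and each sequence runs 5′ to 3′ towards the start on the strand of the gene.
KIF23 (chr15:69414249-69414348, plus strand): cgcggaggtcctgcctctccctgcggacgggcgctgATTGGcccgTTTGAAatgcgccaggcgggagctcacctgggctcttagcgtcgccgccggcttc
KIF4A (chrX:70290004-70290103, plus strand): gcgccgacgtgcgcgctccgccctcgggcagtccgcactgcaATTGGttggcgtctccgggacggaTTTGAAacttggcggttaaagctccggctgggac
KIF15 (chr3:44761694-44761793, plus strand): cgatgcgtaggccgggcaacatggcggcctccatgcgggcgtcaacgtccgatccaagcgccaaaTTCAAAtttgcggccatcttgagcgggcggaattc
KIF11 (chr10:92593030-92593129, plus strand): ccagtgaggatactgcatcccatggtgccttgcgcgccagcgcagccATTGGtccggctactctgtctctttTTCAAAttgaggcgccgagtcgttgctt
KIF20A (chr5:138179012-138179111, plus strand): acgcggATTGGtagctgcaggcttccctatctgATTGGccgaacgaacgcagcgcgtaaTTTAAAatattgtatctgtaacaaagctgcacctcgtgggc
KIF18A (chr11:28108157-28108256, minus strand): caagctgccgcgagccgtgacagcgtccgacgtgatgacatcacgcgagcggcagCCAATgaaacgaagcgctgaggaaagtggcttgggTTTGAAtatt
KIF22 (chr16:29790651-29790750, plus strand): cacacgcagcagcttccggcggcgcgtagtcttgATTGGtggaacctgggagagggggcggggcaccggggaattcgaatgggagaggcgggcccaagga
KIF3B (chr20:32277551-32277650, plus strand): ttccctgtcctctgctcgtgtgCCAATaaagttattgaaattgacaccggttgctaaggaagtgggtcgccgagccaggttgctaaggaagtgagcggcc

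In KIF4A, KIF11 and KIF20A the CCAAT box and the CHR downstream of it were 19, 20 and 21 bases apart, and in KIF14, where the CHR begins at position 2 after the start, they were 18 bases apart. KIF18A and KIF18B had gaps of 30 and 29 bases, and KIF23, the member with the largest fall, a gap of 4. In KIF2C, KIF20B and KIFC1 the CHR lies within 5 bases of the annotated start or downstream of it (positions -3, 25 and 5), and KIF15 had a CHR at -35 without a CCAAT box. The windows of the mitotic members had a median A+T content of 37.7%, close to the 37.3% of tested genes, and those of the transport members 29.5%.

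**Figure D3:**
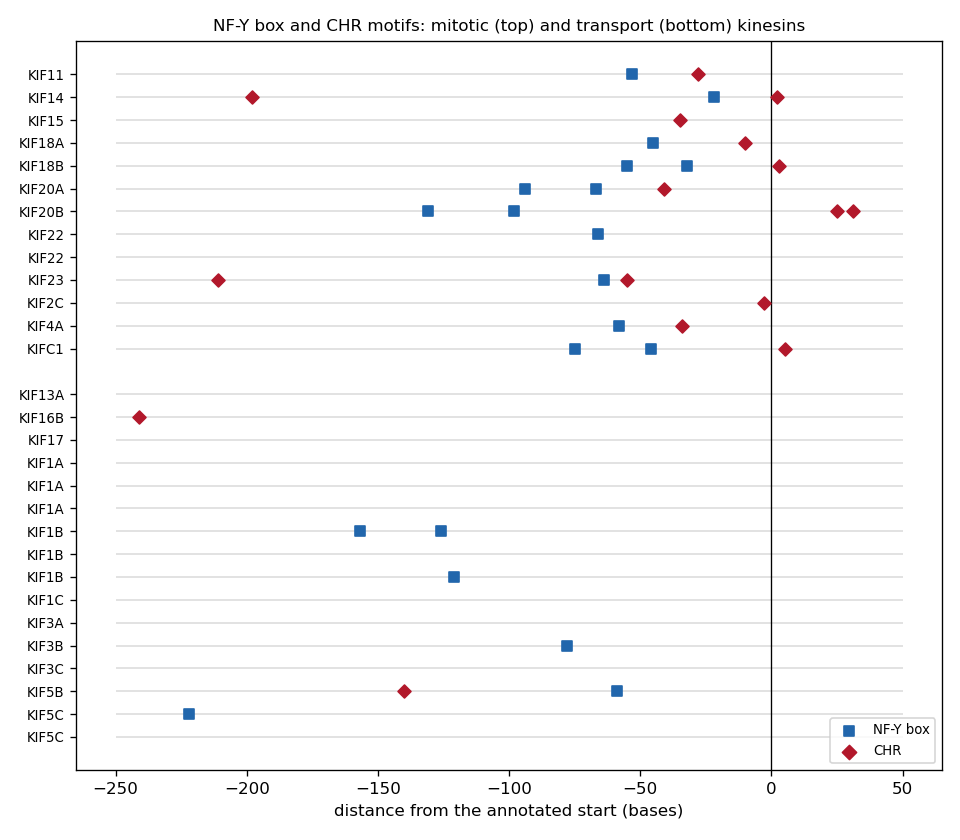
Start of each CHR (diamonds) and each CCAAT box (squares, labelled NF-Y box) in the RefSeq promoter windows of the mitotic and the transport kinesins; the horizontal axis is the distance in bases from the annotated start, and genes with several annotated starts have several lines. A CHR is present in 11 of 12 mitotic and 2 of 11 transport members.

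Transport kinesins changed little and in both directions. KIF1C, a motor of vesicle transport that also serves cell protrusions, had log2 signals of 8.96, 9.23, 9.03 and 9.18 in siCTRL and of 8.57, 8.69, 8.76 and 8.68 in siHMGA1 (log2 fold change -0.43, standard error 0.0739, adjusted p = 8.31e-04 from limma). KIF3C, a partner of KIF3A in a heterodimeric motor, had 8.29, 8.26, 8.41 and 8.31 against 8.01, 8.00, 7.78 and 8.02 (log2 fold change -0.36, standard error 0.0696, adjusted p = 0.00173 from limma). KIF5B, the ubiquitous heavy chain of conventional kinesin, had 12.49, 12.28, 12.39 and 12.34 against 12.13, 12.19, 12.17 and 12.16 (log2 fold change -0.21, standard error 0.06, adjusted p = 0.0173 from limma). The siHMGA1 arrays lay wholly below the siCTRL arrays in all 3, as they did in 4 of the 15 transport members and in 15.6% of all genes tested. What remained was 74.2% of control for KIF1C, 77.7% for KIF3C and 86.2% for KIF5B. The probe sets agreed for KIF5B, which fell on all 3 of them (-0.21, -0.23 and -0.29), and for the 2 brighter ones of KIF1C (-0.43 and -0.42), whereas the dimmer one of KIF3C gave 0.00. With centring on housekeeping genes KIF5B did not pass (-0.14, adjusted p = 0.1 from limma).

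Among the 15 transport members, 2 rose past the limma threshold, both endosome motors, where 15.8% of all genes tested were higher. KIF16B, which carries early endosomes towards microtubule plus ends, had 7.67, 7.69, 7.69 and 7.54 in siCTRL and 8.01, 8.05, 8.01 and 8.11 in siHMGA1 (log2 fold change 0.40, standard error 0.0593, adjusted p = 3.09e-04 from limma). KIF13A, a motor of recycling endosomes, had 10.87, 10.66, 10.83 and 10.68 against 11.05, 11.16, 11.18 and 11.03 (log2 fold change 0.34, standard error 0.0694, adjusted p = 0.00262 from limma). These are increases to 132% and 127% of control, and the siHMGA1 arrays lay wholly above the siCTRL arrays in both genes, as they did in 17.0% of all genes tested. Both rest on part of the probe sets, since the dimmer probe set of KIF16B had a value of -0.01, and KIF13A passed on 2 of its 6 probe sets and not with the mean of all 6 (0.19, adjusted p = 0.0559 from limma).

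The other transport kinesins did not pass the test, which does not show that they were unchanged. KIF3B, a subunit of the kinesin-2 motor of ciliary transport, came closest with KIFC2, a minus-end motor known from neurons in the mouse. KIF3B had 10.99, 10.95, 10.99 and 10.94 in siCTRL and 11.10, 11.14, 11.06 and 11.13 in siHMGA1, groups that did not overlap (log2 fold change 0.14, 95% interval 0.02 to 0.25, adjusted p = 0.0698 from limma), and KIFC2 had a log2 fold change of -0.15 (95% interval -0.28 to -0.02, adjusted p = 0.0708 from limma). Both calls depended on the setting, since KIF3B passed with centring on housekeeping genes, a filter on dim genes and a trended robust fit (adjusted p from 0.00892 to 0.0293, from limma), and KIFC2 with cyclic loess and that filter. KIF3A, with which KIF3B pairs, had 9.23, 9.12, 9.23 and 9.17 against 9.07, 9.07, 9.10 and 9.17 (95% interval of the log2 fold change -0.21 to 0.04). KIF1B, a motor of mitochondria and synaptic vesicle precursors, had 9.74, 9.45, 9.55 and 9.46 against 9.40, 9.43, 9.46 and 9.39 (95% interval -0.29 to 0.02), and KIF13B had 8.73, 8.67, 8.61 and 8.53 against 8.67, 8.86, 8.79 and 8.73 (95% interval -0.02 to 0.28). In these 3 genes the groups overlapped, and the intervals reach changes of up to 0.29 in size. The remaining 5, KIF1A, KIF5A, KIF5C, KIF17 and KIFC3, had log2 fold changes from -0.05 to 0.04. Of these, KIF1A, KIF5A, KIF5C and KIF17 are best known from neurons, and their brightest probe sets had means of 6.99, 5.81, 5.42 and 6.24. Of 5 neuronal markers, MAP2 was lower (7.11 and 6.66, adjusted p = 0.0123 from limma) and the other 4 did not pass, with TUBB3 bright (12.33 in both groups) and SYN1 (5.70 and 5.58), RBFOX3 (6.09 and 5.92) and SNAP25 (6.88 and 6.83) dimmer.

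Among the remaining 13 kinesins, KIF9 rose. KIF9, a motor of motile cilia and sperm flagella, had 9.68, 9.74, 9.61 and 9.62 in siCTRL and 10.22, 10.12, 10.16 and 10.13 in siHMGA1 (log2 fold change 0.49, standard error 0.0571, adjusted p = 4.63e-05 from limma). The groups did not overlap, and the rise was seen on 3 of its 4 probe sets (0.49, 0.46 and 0.40). All 3 carry the suffix _x_at, which marks probes that may also bind other transcripts, and the probe set without it had a value of 0.08 at a mean signal of 5.75. KIF24, a depolymerase that restrains cilium formation at the mother centriole, was lower (4.08, 4.35, 4.21 and 4.01 against 3.89, 3.69, 3.50 and 3.81, log2 fold change -0.44, adjusted p = 0.00431 from limma). KIF27, a relative of the Hedgehog pathway kinesin KIF7, was higher (5.14, 4.88, 4.93 and 4.95 against 5.39, 5.14, 5.11 and 5.23, log2 fold change 0.24, adjusted p = 0.0402 from limma), with groups that overlapped. Both signals lie near background, where the size of a change is compressed, and KIF27 did not pass without siCTRL replicate 2, 3 or 4 or without siHMGA1 replicate 1 or 4 (adjusted p from 0.0809 to 0.117, from limma).

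KIF2A is the close relative of KIF2C that works both at spindle poles and in non-dividing cells. It had 11.19, 10.95, 11.12 and 11.03 in siCTRL and 11.14, 11.20, 11.27 and 11.21 in siHMGA1 (log2 fold change 0.14, 95% interval -0.01 to 0.28, adjusted p = 0.157 from limma), so the interval of KIF2A lay wholly above that of KIF2C (-0.77 to -0.51). Its dimmer probe set had a value of -0.18 (adjusted p = 0.128 in the limma fit on every probe set), and the direction of KIF2A was not settled. KIF21A, which regulates microtubule growth at the cell cortex, had 9.34, 8.78, 9.17 and 8.91 against 9.14, 9.21, 9.19 and 9.21, and here the spread lay in the siCTRL arrays (SD 0.254, against 0.0317 in siHMGA1). The other 8, KIF6, KIF7, KIF12, KIF19, KIF21B, KIF25, KIF26A and KIF26B, had log2 fold changes from -0.18 to 0.19, and none passed.

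Probe sets of the same gene did not always move together. When limma was run on all 41091 probe sets, 15 of the 18 probe sets of the mitotic members were lower, against 12.5% of all. The 3 that did not pass, those of KIF20B and KIF22 named above, had means of 3.78 to 6.52. Of the 39 probe sets of transport members, 6 were lower and 3 higher, where 13.3% of all were higher, and of the 27 of the other members 1 was lower and 3 were higher. The lowest log2 fold change of any probe set outside the mitotic members was -0.44, that of KIF24.

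**Figure D4:**
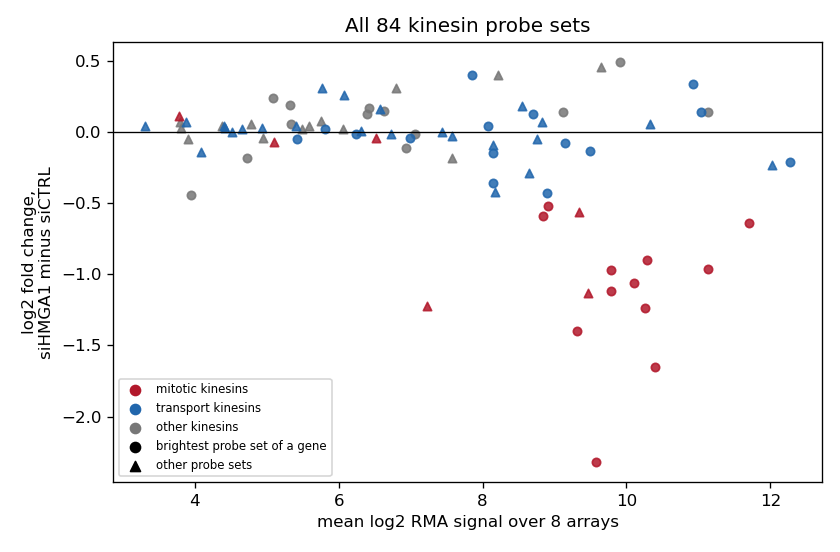
Log2 fold change (siHMGA1 minus siCTRL, vertical axis) against mean log2 RMA signal over 8 arrays (horizontal axis) for the 84 kinesin probe sets, coloured by role; circles are the brightest probe set of a gene and triangles its others. The 3 mitotic probe sets near 0 have means of 3.78 to 6.52.

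In the lists of genes that serve transport motors, medians lay between 0.10 and 0.16. The shares to read their counts against are the 15.8% of all genes that were higher and the 14.7% that were lower. Of 18 light chains and cargo adaptors, 4 rose and 0 fell past the limma threshold (median log2 fold change 0.10), namely TRAK1 (0.45) and RHOT1 (0.38), which link kinesin to mitochondria, and the light chains KLC4 (0.30) and KLC1 (0.26). Of 23 subunits and regulators of cytoplasmic dynein and dynactin, 2 were lower and 9 higher (median 0.16). DCTN4 (0.28), a dynactin subunit, and DYNLRB1 (0.25), a dynein light chain, were among the rises, and NDE1, a dynein regulator with roles in mitosis, fell by 0.90 on the log2 scale. Of 16 intraflagellar transport genes, 2 were lower and 7 higher (median 0.14), among them DYNC2LI1 (0.66) and IFT43 (0.43), while IFT57 fell by 0.89. The number of dynein and dynactin rises depended on the scaling, since it was 4 with cyclic loess and 12 with centring on housekeeping genes. The lists were not compared by a test.

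**Figure D5:**
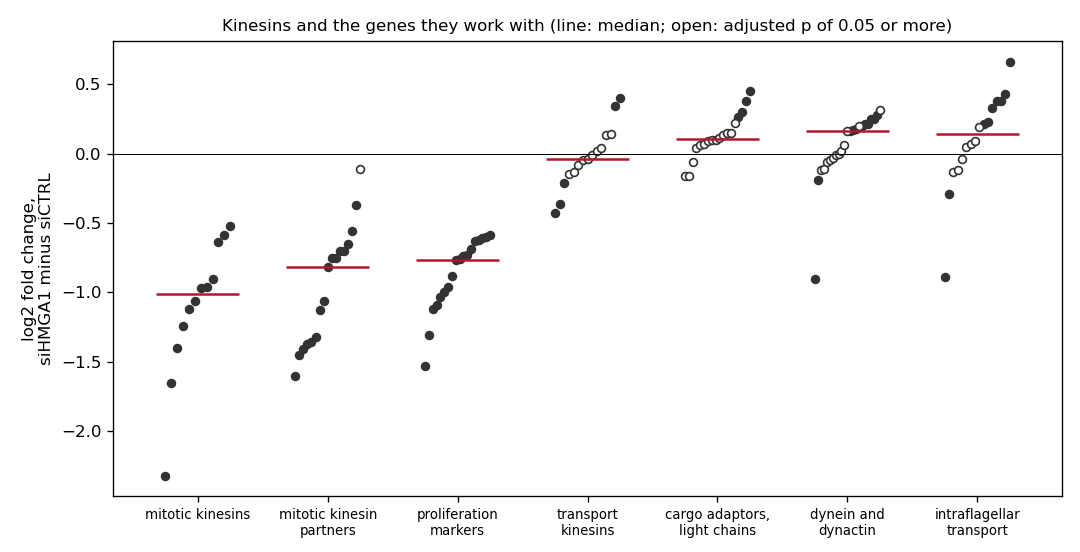
Log2 fold change (siHMGA1 minus siCTRL, vertical axis) of each gene in the mitotic and transport kinesins and in 5 lists of related genes; red lines are medians, and open points had an adjusted p of 0.05 or more from limma. The medians are -1.01, -0.82 and -0.76 for the mitotic kinesins, their partners and the proliferation markers, and -0.04 to 0.16 for the other 4 sets.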

How the data were processed

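RNA of MDA-MB-231 cells was hybridised on 8 Affymetrix arrays. The authors deposited log2 signals per probe set, which the methods derive from Expression Console and RMA (the submitters' processing notes name affy, with no version given in the sources used here). RMA corrects background, equalises the distributions of the arrays and summarises each probe set. A shift of most transcripts one way would be removed by it, and low signals are compressed. Sections of the methods differ in the array type and the number of replicates; the deposited table has hgu133plus2 probe sets in 4 arrays a group, and all were used.

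Gene names came from the annotation of the platform and the RefSeq gene table of GRCh38.p14 (54 probe sets had no match there and kept their symbol). Of 54675 probe sets, 41091 had 1 gene, 1801 had several and were left out, 11721 had none and 62 were controls. Each of 19775 genes was represented by its brightest probe set. The test was limma 3.58.1 (R 4.3.3, default eBayes) with the Benjamini and Hochberg adjustment, the threshold was 0.05, intervals are 95% limma intervals, and the fit was tested on simulated data. Members, roles and lists were chosen with earlier results of these data known. Array values were given for members that passed (up to 14 falls and 6 rises, with KIF3C and KIF5B added after their values were seen), for the 6 brightest that did not, and for HMGA1. From each list up to 3 falls and 2 rises were named, and PRC1, RACGAP1, CENPE, INCENP, KLC4, KLC1 and the cell markers were added after their values were seen. The alternatives were a replicate block, other probe set rules, cyclic loess, centring on 9 housekeeping genes, a filter on dim genes, a trended robust fit, array weights, the methods' t-test, all probe sets, the methods' thresholds and leaving out each array.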

Additional observations from a re-analysis of the deposited data

Results flagged for a closer look

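A gap between 1 array and the other 3 of its group above Dixon's 95% critical value was found in 5 of 82 gene and group pairs, where chance gives about 1 in 20. KIF20A was lowest in siCTRL replicate 2 (11.55, the others 11.63 to 11.65). KIF16B was lowest in siCTRL replicate 4 (7.54, the others 7.67 to 7.69). KIF3C was lowest in siHMGA1 replicate 3 (7.78, the others 8.00 to 8.02). KIF5C (5.55, the others 5.32 to 5.35) and KIFC3 (8.14, the others 8.06 to 8.07) were highest in siHMGA1 replicate 2, and neither passed the test between the groups. KIF20A, KIF16B and KIF3C passed the test whichever array was left out.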

How the results depend on the processing

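The count of lower members, 16, was 15 to 17 under the alternatives with 1 value for each of the 40 genes and an adjusted p threshold of 0.05, and 16 with each array left out in turn. It was 2 with the thresholds of the methods, where the count of higher members was 0. The count of higher members, 4, was 11 with centring on housekeeping genes, where 4781 of the 19775 genes were higher, against 3124. It was 3 to 5 with an array left out. Without probe sets ending in _s_at or _x_at, 35 members were left, the lower count was 11 (8 of them mitotic), the higher count was 2, and the median difference between mitotic and transport members was -1.14. KIF18A, KIF20B, KIF22 and KIFC1 had no probe set there, and KIF3C did not pass. That difference was -1.06 to -0.91 with an array left out, and HMGA1 was -2.50 to -2.34.
Deviations of same-numbered arrays had correlations of 0.07, 0.27, 0.11 and -0.12, and those of differently numbered arrays lay between -0.28 and 0.20. These values do not settle whether arrays of the same number shared an experiment. With the replicate block the counts were 16 lower and 4 higher, the median difference was -0.97, and no call changed.
Among the members that passed the test and the brightest that did not, signs changed for 3. Signs of the other members were not compared across the alternatives. KIF2A was -0.02 with the mean and the median of its probe sets and -0.18 without _s_at and _x_at, and KIF3A was 0.05 with the mean and the median; neither had passed the test. KIF3C, lower at -0.36, was 0.00 without _s_at and _x_at (adjusted p = 0.991 from limma). KIF20B did not pass with the median of its probe sets (-0.07), nor did KIF9 without _x_at (0.08). With the methods' t-test KIFC2 and KIF3B passed and KIF27 did not. No depth stands behind array signals, and dim probe sets limit what can be seen.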
